A study of Mus musculus with 12 samples.

Results

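The endogenous opioid system of the mouse brain was followed through 3 of its neuropeptide precursors (Penk, Pdyn and Pnoc) and its 4 receptors (Oprm1, Oprd1, Oprk1 and Oprl1). Pomc, the beta-endorphin precursor, was not among these members and is described below with related peptides. The members were picked by gene symbol, with earlier results of these data known. They make up 7 of the 33390 genes and transcripts on the array and 10 of its 41174 gene probes. The scanner software flags each spot as well above background or not. Of the 7, 5 had a probe with that flag on at least 6 of the 12 arrays and entered the tests, and Oprm1 and Oprd1 did not. The study compared IL-18 knockout mice (KO) with wild-type mice (WT), which the labels give as strain C57BL/6. The mice were male F2 littermates bred from IL-18-/- and C57BL/6J parents, killed at 12 weeks of age and otherwise untreated. Tissue of 6 regions was cut out of coronal slices: hypothalamus, amygdala, striatum, hippocampus, olfactory bulb and prefrontal cortex. Each region and genotype had 1 array, whose RNA was a pool with an equal share from 5 mice. Whether the mice were the same from region to region is not stated in the labels.

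Opioid peptides are cut from large precursor proteins in dense-core vesicles and act on receptors that couple to inhibitory G proteins, which lower cyclic AMP, open potassium channels and close calcium channels. Enkephalins, from Penk, bind mainly delta and mu receptors, dynorphins, from Pdyn, bind the kappa receptor, and nociceptin, from Pnoc, binds the nociceptin receptor. In the striatum, Penk is a classical marker of the projection neurons of the indirect pathway and Pdyn of those of the direct pathway. The precursors are also made in the central amygdala and in several nuclei of the hypothalamus. The mu receptor is the main target of morphine.

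As start-site sequence, RefSeq promoter windows of assembly GRCm38.p6 were available for 4 members (Pdyn, Oprm1, Oprd1 and Oprl1), as 9 windows in all. Penk, Pnoc and Oprk1 had no window, so the counts below do not cover those genes. The 250 bases before each start were searched on both strands. The cyclic AMP response element half-site TGACG was in 0 of the 9 windows, against 17.8% of all 32851 windows of that length. The AP-1 motif TGANTCA was also in 0 of 9, against 6.75% of all windows. GTCA, the core of the downstream regulatory element to which the repressor DREAM (Kcnip3) binds in the human PDYN gene, was in 8 of 9, against 80.2% of all. Any TGACG on either strand also holds GTCA, so these counts overlap. The Oprm1 windows that start at chr10:6788320 and chr10:6788326 share most of their bases, so the windows are not all separate sequences. A match of 4 letters is a description and not a binding site. Bases after each start were not searched, so an element that lies downstream of the start could not be found. One window of Pdyn, whose regional levels are described below, and the Oprl1 window that alone lacked GTCA are shown 5′ to 3′, with GTCA, or TGAC where it lies on the other strand, in capitals. The Pdyn window is at chr2:129699939-129700188 on the minus strand and the Oprl1 window at chr2:181714766-181715015 on the plus strand.
Pdyn: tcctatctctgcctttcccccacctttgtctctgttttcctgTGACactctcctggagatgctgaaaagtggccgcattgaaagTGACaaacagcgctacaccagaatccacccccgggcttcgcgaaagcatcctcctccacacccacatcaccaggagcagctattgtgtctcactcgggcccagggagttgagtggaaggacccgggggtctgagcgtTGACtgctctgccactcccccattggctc
Oprl1: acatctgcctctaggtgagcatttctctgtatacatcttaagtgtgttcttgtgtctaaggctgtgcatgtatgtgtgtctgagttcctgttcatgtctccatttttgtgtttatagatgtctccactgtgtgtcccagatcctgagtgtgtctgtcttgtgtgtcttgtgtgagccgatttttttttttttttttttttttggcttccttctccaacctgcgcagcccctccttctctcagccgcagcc

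Levels below are log2 values of the processed spot signal after subtraction of the array's 75th percentile, and no level is set against that of another probe. That percentile was 272 intensity units on the striatum KO array and 208 on the striatum WT array, and between 502 and 768 on the other 10. Between 60.8% and 81.3% of the spots of an array were well above background. The deleted gene, Il18, had KO minus WT values between -5.10 and -3.73 in log2 over the regions and was still well above background in KO. Where its probe lies relative to the deletion is not known here.

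The array labelled amygdala WT stood apart from its label. Across genes it correlated at r = 0.993 with the hypothalamus WT array and at r = 0.981 with the amygdala KO array, over 24838 genes or more that share those arrays. The summed level of 10 hypothalamus markers, in multiples of the 75th percentile, was 2.77 on the amygdala KO array and 179 on the array labelled amygdala WT, beside 184 on the hypothalamus KO array and 154 on the hypothalamus WT array. Between amygdala and hypothalamus as labelled, 0 of 24859 genes differed at a limma adjusted p under 0.05. In the other 5 regions the levels of the striatum, olfactory bulb, hippocampus and cerebral cortex markers were highest where their name says, for both genotypes, except that the cerebral cortex sum was 7.89 in hippocampus KO and 7.65 in hippocampus WT, beside 7.53 in prefrontal cortex KO and 7.97 in prefrontal cortex WT. Without both amygdala arrays, KO minus WT across regions was -0.075 for Penk, 0.15 for Pdyn, 0.050 for Pnoc, -0.57 for Oprk1 and 0.11 for Oprl1, and 0 of the 5 passed.

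Across the 6 regions, 0 of the 5 tested members differed between KO and WT at a limma adjusted p under 0.05, with region as a block. Of all 24859 genes and transcripts, 10 passed (0.0402%). At an unadjusted p under 0.05 the count was also 0 of 5 members, against 23.3% of all genes. On the brightest probe of each gene, the precursors and Oprl1 lay within 0.06 of 0 on the log2 scale, and Oprk1 averaged 0.59 lower in KO. The second probes read higher in KO, by 0.33 for Penk, 0.26 for Pnoc and 0.19 for Oprl1, and also missed the threshold. With 1 array per region and genotype, the fit measures how alike the difference was across regions. The pools may hold the same mice from region to region, and taken as tests of genotype these p-values are too small. In bulk tissue, fewer cells of a type and less RNA per cell cannot be told apart.

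Penk, which encodes the precursor of the enkephalins, has 2 probes. On its brighter probe the KO levels were 8.93 in striatum, 6.15 in olfactory bulb, 6.26 in amygdala, 6.00 in hypothalamus, 4.35 in prefrontal cortex and 4.23 in hippocampus. The WT levels in the same regions were 9.03, 6.17, 6.12, 6.14, 4.33 and 4.36. Both genotypes fell into the same 3 tiers, with striatum on top, olfactory bulb, amygdala and hypothalamus in between, and prefrontal cortex and hippocampus at the bottom.

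In the striatum Penk was 11.9-fold higher than in the mean of the other 5 regions (log2 difference 3.57, SE 0.075, limma adjusted p = 1.88e-06). The size depended on scaling and probe, at 2.19 without scaling and 1.99 on the second probe. Of all genes tested, 13.1% were at least 2-fold higher there at an adjusted p under 0.05, a rule that sets the calls between regions throughout. Penk was called lower in the prefrontal cortex, at -2.00 (SE 0.075, adjusted p = 5.33e-05), where 3.02% of genes were lower. It was also called lower in the hippocampus, at -2.06 (adjusted p = 2.28e-05, 2.39% of genes lower). Each region is also 1 slide, so region and slide cannot be told apart for any member. In the order of levels, striatum lay 2.79 above amygdala and hypothalamus 1.73 above prefrontal cortex, and both steps passed. Without the array labelled amygdala WT the step from striatum to amygdala was 2.68 and passed. Amygdala, olfactory bulb and hypothalamus followed each other with steps that missed the threshold (0.031 and 0.089), as did prefrontal cortex and hippocampus (0.047).

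KO minus WT for Penk ranged from -0.15 in hypothalamus to 0.14 in amygdala, inside the spot error of 0.20 in all 6 regions. Across regions it was -0.039 (SE 0.056, limma adjusted p = 0.702, 95% interval -0.17 to 0.093), lower in 4 of 6 regions. The second probe followed the same regions (r = 0.912 over the 12 arrays) but not the same genotype balance. Its KO levels were 3.61 in striatum, 2.25 in olfactory bulb, 2.67 in amygdala, 2.27 in hypothalamus, 0.14 in prefrontal cortex and 0.16 in hippocampus, and its WT levels there were 3.08, 1.96, 2.15, 2.27, -0.25 and -0.093. This probe was higher in KO in 5 of 6 regions, by 0.33 across regions (SE 0.080), with an unadjusted p of 0.0044 and a limma adjusted p of 0.108. Which part of the transcript each probe reads was not tested, since probe sequences were not used here.

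**Figure D1:**
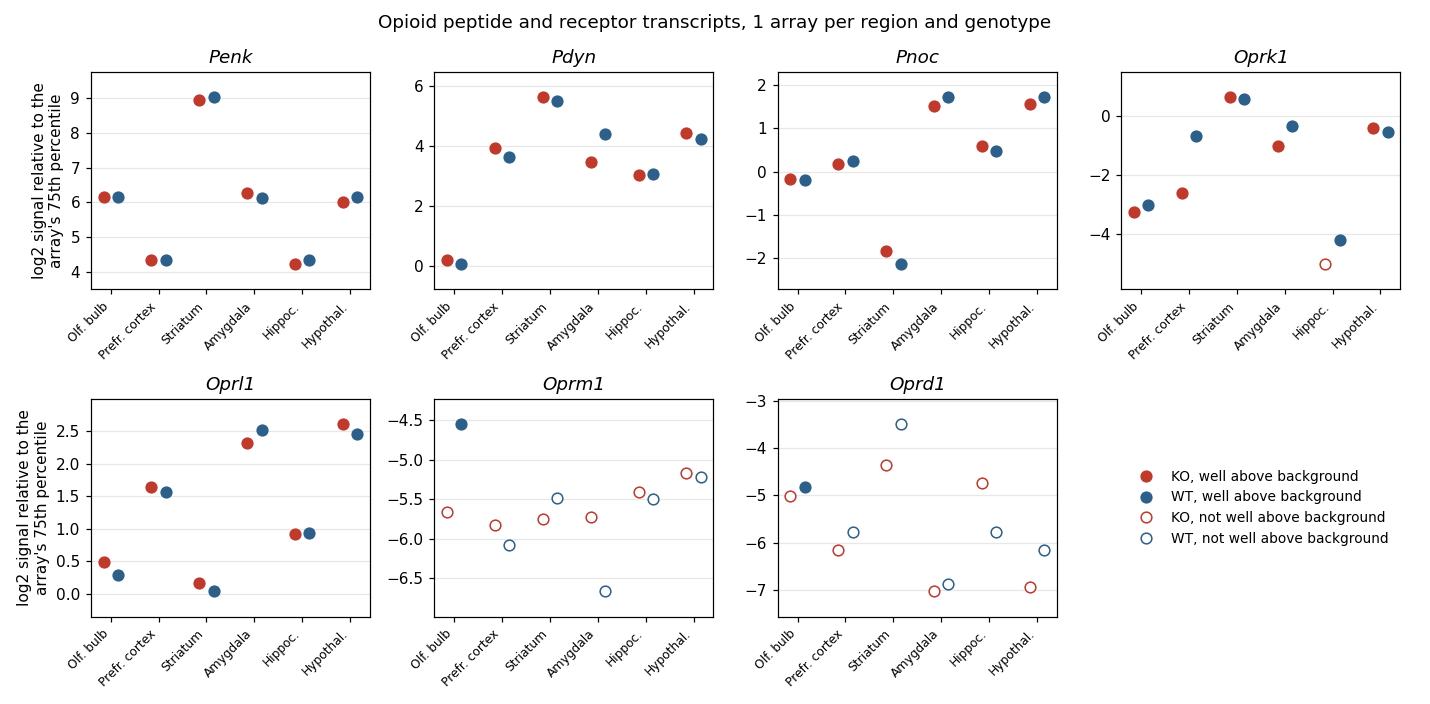
Levels of the 7 transcripts, each on its brightest probe, as log2 signal relative to the array's 75th percentile (y axis, own scale per gene) in 6 regions (x axis), with KO in red on the left and WT in blue on the right. Each point is 1 array of pooled RNA, and open points were not well above background. KO and WT points of Penk, Pnoc and Oprl1 lie close together in every region, Pdyn parts in the amygdala and Oprk1 in the prefrontal cortex, and Oprm1 and Oprd1 are open on 11 of 12 arrays each.

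Pdyn encodes prodynorphin, the source of the dynorphins and alpha-neoendorphin. Its 1 probe read 5.62 in striatum, 4.41 in hypothalamus, 3.46 in amygdala, 3.92 in prefrontal cortex, 3.03 in hippocampus and 0.19 in olfactory bulb on the KO arrays. On the WT arrays it read 5.48, 4.22, 4.40, 3.62, 3.04 and 0.045 in the same regions. The olfactory bulb was the low region on both genotypes and the only one near the array's 75th percentile. It was 16.1-fold below the mean of the others (log2 -4.00, SE 0.22, limma adjusted p = 2.13e-05), where 5.51% of genes were called lower.

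The striatum was called higher for Pdyn (2.52, SE 0.22, adjusted p = 7.90e-05), and so was the hypothalamus (1.03, adjusted p = 0.0144, 1.84% of genes higher). Striatum lay 1.24 above hypothalamus (adjusted p = 0.0073). That step depended on the scaling, because the striatum arrays had the lowest 75th percentiles. As unscaled intensity, Pdyn read 13406 in striatum KO and 9304 in striatum WT, and 12643 in hypothalamus KO and 11633 in hypothalamus WT. Without scaling, the hypothalamus was 0.12 above the striatum (adjusted p = 0.684), and striatum against the other regions was 1.14 and still called. Without scaling the amygdala was also called higher (1.05, adjusted p = 0.0040), beside 0.58 with scaling, and 0.032 with scaling but without the array labelled amygdala WT. Hypothalamus, amygdala, prefrontal cortex and hippocampus followed each other in steps of 0.16 to 0.74 that missed the threshold, and hippocampus lay 2.92 above olfactory bulb. Without the array labelled amygdala WT, hypothalamus lay 0.54 above prefrontal cortex and that step passed (adjusted p = 0.0093).

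KO minus WT for Pdyn was -0.94 in amygdala, with a spot error of 0.20. With the same spot error it was -0.011 in hippocampus, 0.14 in olfactory bulb, 0.14 in striatum, 0.19 in hypothalamus and 0.29 in prefrontal cortex. The amygdala value alone lay outside the spread of the others, with the WT array 1.91-fold above the KO array. In that region 7.20% of all genes had a lower difference. In the authors' deposited table the KO over WT ratio of Pdyn there was 0.520. The array labelled amygdala WT lay 0.18 above hypothalamus WT in Pdyn, within the spot error, while the amygdala KO array differed from hypothalamus KO by -0.94. Between those arrays 1.02% of all genes were 2-fold apart in the WT pair and 4.59% in the KO pair, against 0 of the 5 tested members in either. Hypothalamus markers moved with it. All 9 measured ones read lower in amygdala KO, 8 past 2-fold, and their median was -3.99, whereas 0 of 6 amygdala markers read lower (median 0.55). Choroid plexus markers read lower in 7 of 7 (median -2.36). Their part in the Pdyn value was not tested. Across regions Pdyn differed by -0.030 (SE 0.16, limma adjusted p = 0.929, 95% interval -0.41 to 0.35) and was higher in KO in 4 of 6 regions. Without both amygdala arrays the value took the other sign, at 0.15 (adjusted p = 0.264).

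Pnoc encodes the precursor of nociceptin and nocistatin and has 2 probes. The brighter one read 1.57 in hypothalamus, 1.52 in amygdala, 0.60 in hippocampus, 0.18 in prefrontal cortex, -0.16 in olfactory bulb and -1.84 in striatum on the KO arrays. The WT arrays read 1.73, 1.71, 0.47, 0.24, -0.20 and -2.14 there. The striatum was the low region on both genotypes, the reverse of Penk and Pdyn.

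Pnoc was called lower in the striatum, at -2.75 (SE 0.10, limma adjusted p = 6.31e-06), where 9.85% of genes were called lower. The value was -4.13 without scaling and -4.08 on the second probe. It was called higher in the hypothalamus, at 1.61, and in the amygdala, at 1.57 (adjusted p = 0.00041, 1.72% of genes higher), and the amygdala value was 1.45 without the array labelled amygdala WT (adjusted p = 0.0046). Hypothalamus and amygdala did not part in the order of levels (0.033), and amygdala lay 1.08 above hippocampus, or 0.96 without the array labelled amygdala WT, and passed both ways. Hippocampus and prefrontal cortex were 0.32 apart, which missed the threshold. Prefrontal cortex lay 0.39 above olfactory bulb (adjusted p = 0.044), a step of 0.024 without scaling (adjusted p = 0.936), and olfactory bulb lay 1.81 above striatum. The second probe tracked the first over the arrays (r = 0.979) and gave the same 3 calls, though it was not well above background on either striatum array.

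Differences between KO and WT in Pnoc ranged from -0.20 in amygdala to 0.30 in striatum, where the spot error was 0.24. Across regions Pnoc differed by 0.0090 (SE 0.076, limma adjusted p = 0.956, 95% interval -0.17 to 0.19), higher in KO in 3 of 6 regions.

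Among the receptors, Oprm1 (mu) and Oprd1 (delta) were not measurable on most arrays. Each has 1 probe, which was well above background on 1 array, that of olfactory bulb WT. Oprm1 read between -5.83 and -5.17 on the KO arrays and between -6.67 and -4.55 on the WT arrays, and Oprd1 between -7.03 and -4.36 on the KO arrays and between -6.87 and -3.50 on the WT arrays. In the olfactory bulb the KO minus WT difference of Oprm1 was -1.11, with a spot error of 0.63. Taken without that error, Oprm1 was at least 1.66-fold higher there on the WT array. This bound is against the lowest signal still well above background or the KO array's own reading, whichever was higher. With an error of that size and dim readings, a higher Oprm1 level in WT was not established. Oprd1 differed there by less than its spot error. No fold is given for Oprd1 or for the other regions, and the authors' deposited table leaves both genes blank in all 6. These readings bound the signal of 2 probes and do not show that the receptors are absent.

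Oprk1, the kappa receptor through which dynorphins act, has 1 probe, well above background on 11 of 12 arrays. It read 0.66 in striatum, -0.39 in hypothalamus, -1.01 in amygdala, -2.61 in prefrontal cortex, -3.26 in olfactory bulb and -5.03 in hippocampus on the KO arrays, the last not well above background. The WT arrays read 0.60, -0.54, -0.33, -0.65, -3.00 and -4.20. The spread between regions was wide on both genotypes, with hippocampus lowest and striatum highest.

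Of the 6 regions, 5 were called for Oprk1, and 4 without the array labelled amygdala WT. The striatum was higher by 2.73 (SE 0.36, limma adjusted p = 0.00054), the hypothalamus by 1.42 (adjusted p = 0.0276) and the amygdala by 1.17 (adjusted p = 0.0347). The hippocampus was lower by 3.56 in log2 (difference -3.56, adjusted p = 0.00070) and the olfactory bulb by 1.78 (difference -1.78). These values take the hippocampus KO reading, which was not well above background, as measured. With that reading at its bound of -4.83 the hippocampus value was -3.46 (adjusted p = 0.00076), and the same 5 regions were called. Without the array labelled amygdala WT the amygdala value was 1.11 and no longer passed (adjusted p = 0.153). Without scaling, the striatum value was 1.35 and still called, but the order then ran hypothalamus, amygdala, striatum. As unscaled intensity Oprk1 read 429.8 in striatum KO and 315 in striatum WT, and 455 in hypothalamus KO and 429 in hypothalamus WT. With scaling, the steps of 1.09, 0.20 and 0.96 from striatum through hypothalamus and amygdala to prefrontal cortex missed the threshold, and those of 1.50 to olfactory bulb (adjusted p = 0.035) and 1.48 on to hippocampus (adjusted p = 0.040) passed. With hippocampus KO at its bound the last step was 1.38 (adjusted p = 0.048). Without the array labelled amygdala WT both steps missed it (adjusted p = 0.051 and 0.056).

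Oprk1 held the largest difference between KO and WT among the members. In the prefrontal cortex its intensity was 89.0 on the KO array and 319 on the WT array, a log2 difference of -1.96 (spot error 0.21), or 3.89-fold higher in WT. This was the only one of 29 member values with both arrays above background that was 2-fold apart. In the prefrontal cortex 3.46% of all genes were 2-fold lower on the KO array and 0.865% were 2-fold higher, and 0.144% had a lower difference than Oprk1. In the regions with 0 members 2-fold apart, the shares of all genes 2-fold lower and 2-fold higher in KO were 0.616% and 0.308% in olfactory bulb, 0.76% and 0.8% in striatum, 6.34% and 0.521% in amygdala, 0.997% and 0.757% in hippocampus and 0.619% and 0.364% in hypothalamus. The authors' deposited table gives a ratio of 0.255. No test was possible with 1 array on each side. The other differences were -0.68 in amygdala, -0.26 in olfactory bulb, 0.066 in striatum and 0.15 in hypothalamus. In the hippocampus, where the KO array gives only a bound, WT was at least 1.54-fold higher. That bound does not take in the spot error, which was 0.43 there.

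The prefrontal cortex pair also differed in markers of a neighbouring region. Of 5 measured olfactory bulb markers, 4 were lower on the KO array and 1 was higher, by 0.49, with a list median of -1.09. Of these, 3 were 2-fold lower (Doc2g at -1.44, Tbx21 at -1.18 and Cdhr1 at -1.09). The summed level of the 6 olfactory bulb markers was 0.845 on the KO array and 1.53 on the WT array. The Oprk1 level in olfactory bulb itself was -3.26 in KO and -3.00 in WT, below that of both prefrontal cortex arrays. Striatum markers had a median of 0.016 in the same pair and cerebral cortex markers of -0.094. The part of these markers in the Oprk1 value was not tested.

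Across regions Oprk1 was -0.59 (SE 0.27, unadjusted p = 0.0681, limma adjusted p = 0.247, 95% interval -1.23 to 0.057), lower in KO in 4 of 6 regions. With the hippocampus KO reading at its bound it was -0.55 (adjusted p = 0.265), and without the hippocampus pair -0.54 (adjusted p = 0.385). Of all genes tested, 27.6% had a smaller p. Without the prefrontal cortex pair the value was -0.31 (adjusted p = 0.416), a reduction of over 1.5 times that rests on this 1 pair.

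**Figure D2:**
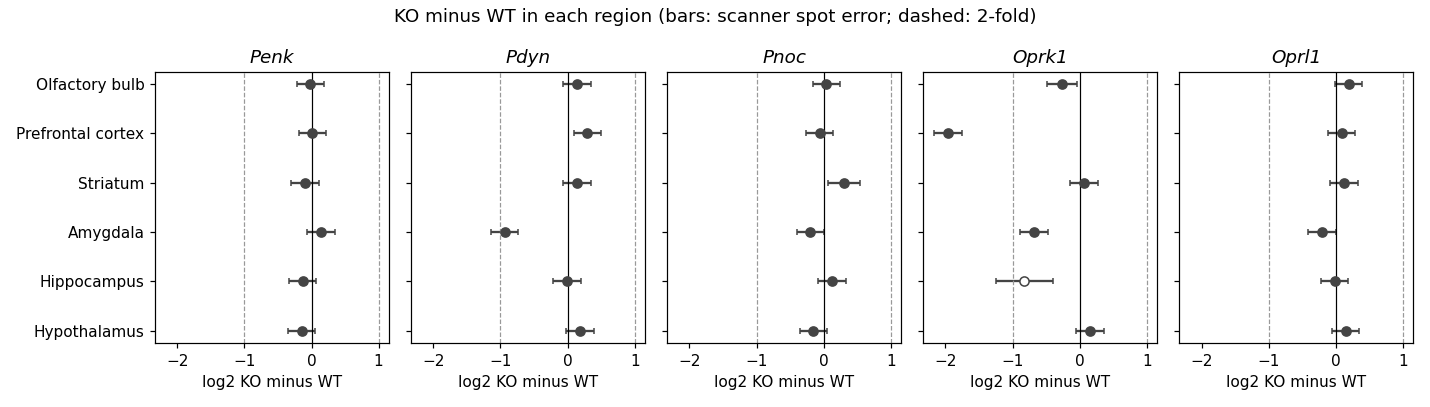
KO minus WT on the log2 scale (x axis) in each region (y axis) for the 5 tested transcripts, 1 array per genotype, with bars for the scanner's spot error and dashed lines at 2-fold. The open point, Oprk1 in hippocampus, has a KO reading not well above background. Most points sit within 1 spot error of 0. Those furthest from 0 are Oprk1 in prefrontal cortex at -1.96, Pdyn in amygdala at -0.94, Oprk1 in hippocampus at -0.83 and Oprk1 in amygdala at -0.68.

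Oprl1, the nociceptin receptor, has 2 probes. The brighter read 2.61 in hypothalamus, 2.32 in amygdala, 1.65 in prefrontal cortex, 0.92 in hippocampus, 0.49 in olfactory bulb and 0.16 in striatum on the KO arrays. The WT arrays read 2.46, 2.52, 1.56, 0.93, 0.30 and 0.040. Hypothalamus and amygdala were high and striatum and olfactory bulb low on both genotypes, the same ends as for Pnoc, its ligand's gene.

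On this probe Oprl1 was called higher in the hypothalamus, at 1.45, and in the amygdala, at 1.31 (SE 0.087, limma adjusted p = 0.00042), or 1.15 without the array labelled amygdala WT. It was called lower in the striatum, at -1.47 (adjusted p = 2.08e-05), a value of -2.85 without scaling, and in the olfactory bulb, at -1.13. The olfactory bulb call was lost without scaling, at -0.70. Hypothalamus and amygdala did not part (0.12), the steps of 0.81, 0.68 and 0.53 down through prefrontal cortex and hippocampus to olfactory bulb passed, the first also without the array labelled amygdala WT (0.66), and olfactory bulb and striatum were 0.29 apart, which missed the threshold (adjusted p = 0.062) and passed without the array labelled amygdala WT (adjusted p = 0.0244). Without scaling that last step was 1.79 and passed (adjusted p = 1.43e-05), whereas the steps from prefrontal cortex to hippocampus and from hippocampus to olfactory bulb missed the threshold.

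The second Oprl1 probe did not follow the first (r = 0.0089 over the 12 arrays), although it was well above background on every array. It read between -1.84 and -0.55 on the KO arrays and between -1.92 and -0.68 on the WT arrays, with hippocampus highest on both genotypes, and it gave 0 calls in the 6 regions. Its amygdala value against the others was -0.36, opposite in sign to that of the brighter probe. All statements on Oprl1 by region therefore hold for 1 of its 2 probes.

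For KO against WT the brighter Oprl1 probe ranged from -0.21 in amygdala to 0.19 in olfactory bulb. Across regions it was 0.055 (SE 0.065, limma adjusted p = 0.635, 95% interval -0.098 to 0.21), and the second probe 0.19 (adjusted p = 0.450). The second probe varied more by region, with spot errors between 0.21 and 0.23. It was 0.67 in prefrontal cortex, 0.45 in olfactory bulb, 0.41 in amygdala, 0.13 in hippocampus, -0.12 in striatum and -0.41 in hypothalamus.

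**Figure D3:**
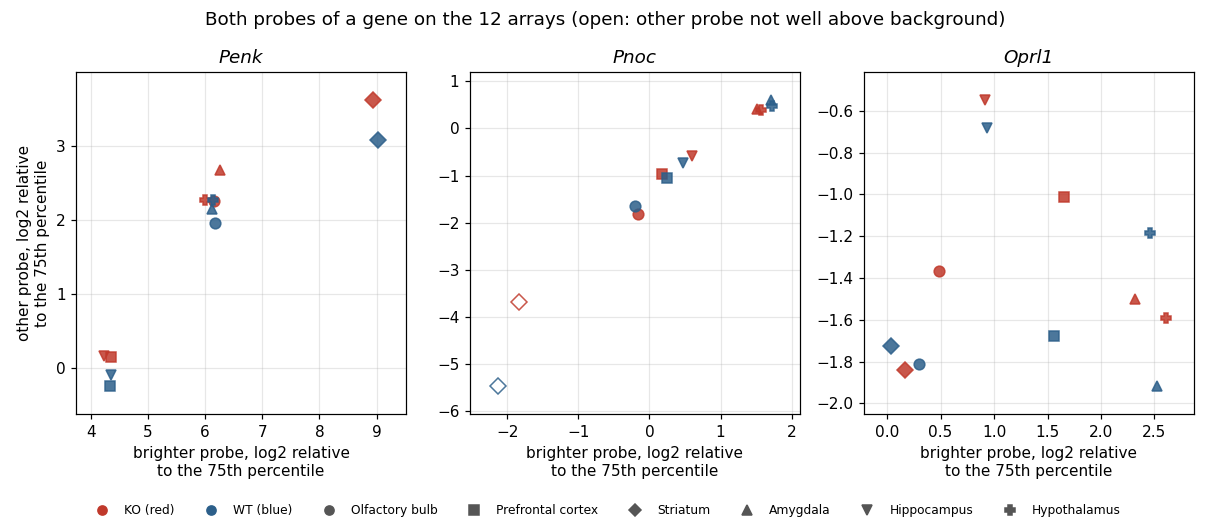
The brighter probe (x axis) against the other probe (y axis) of Penk, Pnoc and Oprl1 on the 12 arrays, both as log2 signal relative to the array's 75th percentile, with KO red, WT blue and a symbol per region. Open points mark the striatum arrays on which the other Pnoc probe was not well above background. The probes of Penk and Pnoc rise together (r = 0.912 and 0.979), and those of Oprl1 do not (r = 0.0089).

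Set side by side over regions, 18 of the 30 region values of the 5 tested members were called. In striatum 3 were higher and 2 lower, beside 13.1% and 9.85% of all genes. In hypothalamus 4 were higher and 0 lower (1.84% and 1.7% of all genes), and in amygdala 3 and 0 (1.72% and 5.39%). In olfactory bulb 0 were higher and 3 lower (7.06% and 5.51% of all genes), in hippocampus 0 and 2 (5.11% and 2.39%) and in prefrontal cortex 0 and 1 (2.88% and 3.02%). Without the array labelled amygdala WT there were 17 calls.

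Of the 25 steps between neighbours in the members' orders of regions, 12 passed at an adjusted p under 0.05. The shares of all genes passing this rule were large for most pairs of regions, so a passed step is common on these arrays. For striatum the share was 66.6% against amygdala, 61.4% against hypothalamus, 59.3% against prefrontal cortex and 59.3% against hippocampus. For olfactory bulb it was 59.4% against amygdala, 55.1% against striatum, 48.9% against prefrontal cortex, 48% against hypothalamus and 43.7% against hippocampus. For amygdala it was 39.2% against hippocampus, 28% against prefrontal cortex and 0% against hypothalamus, and for hippocampus 34.8% against hypothalamus and 22.4% against prefrontal cortex. Prefrontal cortex and hypothalamus differed in 27.5% of genes.

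**Figure D4:**
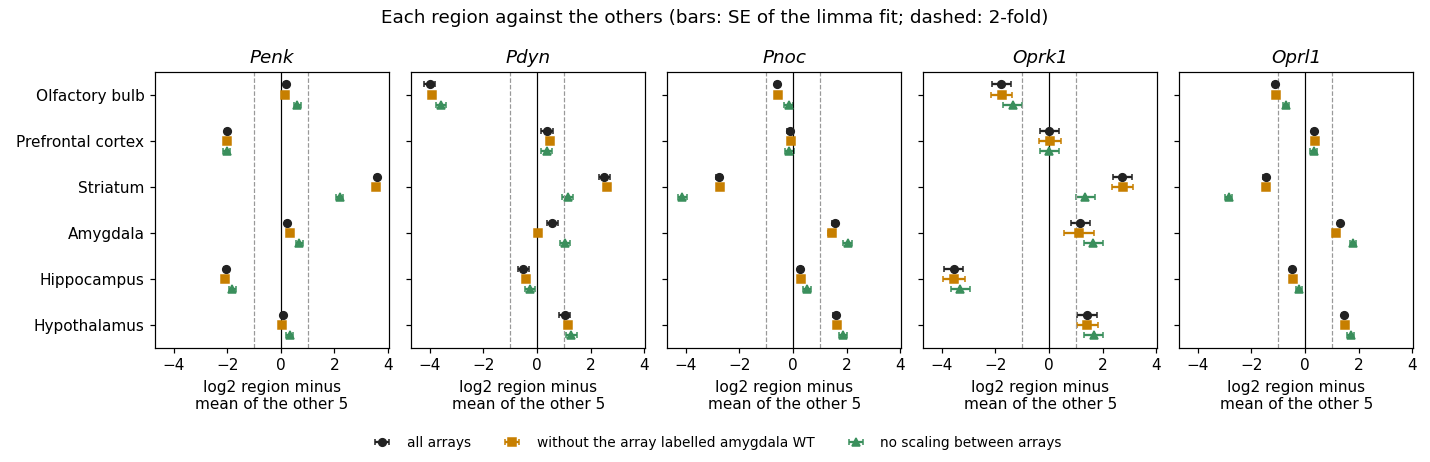
Each region minus the mean of the other 5 on the log2 scale (x axis) for the 5 tested transcripts, with the standard error of the limma fit as bars and dashed lines at 2-fold. Black points use all arrays as labelled, orange squares leave out the array labelled amygdala WT and green triangles use unscaled signals. Penk, Pdyn and Oprk1 lie to the right in striatum and Pnoc and Oprl1 to the left under all 3, though the unscaled values sit further left there.

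Over the 12 arrays, levels of Pnoc and Oprl1, each on its brighter probe, correlated at r = 0.894, or 0.879 without the array labelled amygdala WT. Such values were common. Of 11804 named genes well above background on all arrays, 334 had r over 0.9 with Pnoc and 266 with the brighter Oprl1 probe. The second Oprl1 probe did not follow the brighter one (r = 0.0089). Penk and Oprk1 correlated at 0.696, Pdyn and Oprk1 at 0.679, and Penk and Pnoc at -0.59. The remaining pairs of tested members lay between -0.37 (Penk and Oprl1) and 0.38 (Penk and Pdyn). The 12 points share 6 regions and 2 genotypes, so these r mostly restate the regional levels and describe the arrays only. Among 11804 named genes (11805 for Oprk1) that were well above background on all arrays, those with the levels most like Penk were Vstm4 (r = 0.982), Syt10 (0.979) and Pfdn5 (0.979). For Pdyn they were Mfsd3 (0.984), Chchd2 (0.976) and Caln1 (0.974), and for Pnoc Vangl2 (0.986), 9530068E07Rik (0.981) and Eps8 (0.980). Oprk1 was most like Cntn6 (0.964), Dusp26 (0.963) and Ccdc116 (0.961), and the brighter Oprl1 probe most like Cd200 (0.997), Btbd11 (0.989) and Slc1a6 (0.984).

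The genes that surround the opioid peptides and receptors were examined as 6 lists, of which 0 members were called between KO and WT across regions. Of 8 measured genes of peptide processing, such as the convertases Pcsk1 and Pcsk2 that cut the precursors, 5 were higher and 3 lower in KO, with a median of 0.029. Of 8 peptidases that break the peptides down, 3 were higher and 5 lower (median -0.052). Of 14 measured genes of receptor signalling, the G protein subunits, potassium and calcium channels and adenylyl cyclases, 12 were higher and 2 lower (median 0.059). That balance was not shared by all regions. On the pair labelled amygdala 13 were higher and 1 lower (median 0.17), and in hippocampus 4 were higher and 10 lower (-0.10). The counts were 7 and 7 in prefrontal cortex and in hypothalamus, 9 and 5 in olfactory bulb and 7 and 4 in striatum. Of 14 regulators of receptor activity 8 were higher and 6 lower (0.017), of 5 related or opposing peptides and receptors 2 and 3 (-0.043), and of 5 transcriptional regulators of the precursors 3 and 2 (0.018). The median over all genes was -0.023.

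Within a region, 4 of 318 values from these lists were 2-fold apart with both arrays well above background, 1 of 54 higher in prefrontal cortex KO (0.865% of all genes), 2 of 53 lower in amygdala KO (6.34%) and 1 of 53 higher in hippocampus KO (0.757%). In the prefrontal cortex Mme, the enkephalin-cleaving peptidase neprilysin, read -2.26 on the KO array and -4.91 on the WT array, a difference of 2.64 (spot error 0.33). The WT reading was dim, though flagged well above background, so the size of this difference is uncertain. Elsewhere Mme was well above background on both arrays only in hypothalamus (-0.11) and striatum (0.046). On the pair labelled amygdala Pomc, the beta-endorphin precursor, read 3.62 in KO and 5.06 in WT (-1.44), beside 5.04 in hypothalamus KO and 4.87 in hypothalamus WT. In the hippocampus Pomc read 1.13 in KO and -0.058 in WT, a difference of 1.19. On that pair 7 of 7 choroid plexus markers read higher in KO, 2 past 2-fold, with a median of 0.72, and their part in the Pomc value was not tested. Rgs9, which speeds the switching-off of G proteins in striatal neurons, read 0.0056 on the amygdala KO array and 1.09 on the array labelled amygdala WT (-1.09), beside 1.00 in hypothalamus KO and 0.94 in hypothalamus WT.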

How the data were processed

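RNA pools of 5 mice, 400 ng each, were labelled with Cy3 and hybridised to Agilent arrays, 1 array per region and genotype, on 6 slides, 1 per region. Each genotype had fixed places on the slides, so genotype and place cannot be told apart. Spot intensity was deposited as scanner output. Per the file headers it came from Feature Extraction version 9.5.3.1, with background subtraction and no scaling from array to array. The flags for background and outliers come from the same deposited scanner output, and the KO over WT ratio comes from the authors' deposited table.

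Here log2 of the deposited intensity was taken, spots marked as outliers were dropped (61 to 143 per array, 0 saturated), and the 75th percentile of each array was subtracted. The spots of a probe were averaged and a gene was read from its probe of highest mean. Accessions of 22951 of 41174 gene probes (55.7%) matched the RefSeq table of GRCm38.p6, used for gene names. Genes well above background on at least 6 of 12 arrays, 24859 in all, were fitted with limma 3.58.1 in R 4.3.3 with Benjamini-Hochberg adjustment. KO minus WT had region as a block, and region contrasts had genotype as a covariate. The fits were tested on simulated data with independent noise on each array, which holds no effect of shared mice, slide or place. The number of arrays limits the precision.

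The members and lists were chosen with earlier results of these data known. Named were all members, list genes that passed across regions or were 2-fold apart in a region, and the 3 genes of highest r with each tested member. The normexp alternative used the median foreground signal, because the mean signal is not among the columns used here.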

Additional observations from a re-analysis of the deposited data

Results flagged for a closer look

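The KO minus WT value of Pdyn on the pair labelled amygdala, -0.94, stood apart from those of the other 5 regions, which ran from -0.011 to 0.29. Its gap to the nearest region was 0.752 of the whole range, above Dixon's critical value for 6 values. Of the 5 tested members this was the 1 flagged in this way, and chance flags about 1 in 20 groups. The array labelled amygdala WT, from which the value is taken, lay within 0.18 of hypothalamus WT in Pdyn.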

How the results depend on the processing

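Of 561 values recomputed under the alternatives, 527 kept their direction and side of the threshold or moved by less than the 95% range of the spot error, 13 became weaker, 1 stronger, 1 reversed and 19 moved. Members called between KO and WT across regions stayed at 0 under every alternative run. The count over all genes, 10, was 16 with quantile normalization, 693 with normexp, 20 with a filter on all 12 arrays, 161 with trend and robust variance, 1 without both amygdala arrays and 1 to 5 with 1 region pair left out. Member values 2-fold apart within a region, 1 as reported, were 2 with quantile normalization, which took Pdyn in amygdala to -1.01, and 2 as the mean of a gene's probes, which took Pnoc in striatum to 1.04 through a probe not well above background there. Oprk1 in prefrontal cortex was -1.42 with normexp. The reversed value was Oprl1 in amygdala against the others, -0.36 with its other probe. The calls lost with normexp were Oprl1 in olfactory bulb (-0.98) and Oprk1 in amygdala (0.76) and hypothalamus (0.93), and as the mean of both probes the 4 calls of Oprl1 fell below 2-fold, at -0.67, -0.96, 0.47 and 0.73 in olfactory bulb, striatum, amygdala and hypothalamus. The causes were not tested. Unscaled signals, other probes of the members and the bound for hippocampal Oprk1 were chosen after seeing the data. KO and WT arrays of a region were paired through the region block, and the labels carry no replicate numbers. Dim signal limits Oprm1, Oprd1 and hippocampal Oprk1 to bounds.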
